A study of Mus musculus with 16 samples.

Results

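The AP-1 and immediate early genes described here were 10 genes chosen by name: the Fos family (Fos, Fosb, Fosl1, Fosl2), the Jun family (Jun, Junb, Jund), and Egr1, Ier2 and Ier3. They were 10 of 55414 gene IDs in the count table, and all 10 were among the 18946 genes that passed a filter on low counts. RNA was sequenced from 16 tumours of B6MyC-CaP, a cell line from a prostate tumour model (Hi-MYC, in which a probasin promoter drives MYC) on a C57BL/6 background, grown under the skin of male C57BL/6 mice aged 6 weeks at implantation. Vehicle tumours (n = 4) came from freely fed mice, and ENZ tumours (n = 4) from freely fed mice given the androgen receptor antagonist enzalutamide at 20 mg/kg by daily gavage. ADF tumours (n = 4) came from mice on alternate-day fasting, 24 h without food and 24 h with food, and ADF+ENZ tumours (n = 4) from mice given both. All groups share 1 cell line and a site outside the prostate. The sources used here give neither the length of treatment nor whether mice were fasting when tumours were collected.

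Immediate early genes are transcribed within minutes of a growth factor, serum or stress signal, without new protein synthesis, and their messengers are short-lived. ERK phosphorylates TCF factors that sit with SRF at the Fos and Egr1 promoters, while CREB binds cAMP response elements. Fos and Jun proteins pair through leucine zippers to form AP-1, which binds the same DNA element in many growth, matrix and inflammation genes; in prostate tumours AP-1 is known both as a proliferation factor and as a partner of the androgen receptor.

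Levels are counts scaled to library size (CPM) after TMM scaling, and changes are log2 differences from 1 edgeR quasi-likelihood fit of all 16 libraries, with p-values adjusted by Benjamini-Hochberg over all 18946 genes and a threshold of 0.05. Libraries held 10072489 to 25505655 gene counts, and a member's count in 1 library ran from 47 (Fos) to 8527 (Fosl2). Reads in no annotated feature took 32.9% ± 2.73 (SD, n = 4) of reads in ADF libraries, against 25.9% ± 2.25 for Vehicle, 25.9% ± 1.45 for ENZ and 24.0% ± 2.05 for ADF+ENZ. The ADF libraries did not overlap any other group in this share, and a fit with this share as a covariate is given beside the calls it ended. Share and ADF nearly coincide, so that fit cannot tell an effect of ADF from one of the share. It had little power in comparisons with ADF, so a call lost there decides nothing. The tumours carried Krt8 at 456 to 594 CPM (group means), while Epcam and Cldn4 were under 1 CPM in every group mean. The epithelial markers Krt19 and Cldn3 averaged 2.49 CPM ± 2.50 (SD, n = 4) and 1.26 ± 0.636 in Vehicle tumours and under 1 CPM in each treated group, with Krt19 at 0.0204 CPM ± 0.0408 in ADF+ENZ. They belong to a list of 10 luminal epithelial markers that did not move together. Cdh1 was also lower in each treated mean, but Cldn7 was higher (1.22, 1.29 and 1.21 against 1.02 CPM). Krt18 was highest in ADF+ENZ, at 145 against 133 CPM in Vehicle. Of 7 luminal markers tested in edgeR, 0 rose and 1 fell in each comparison with Vehicle. Replicate numbers only name libraries, the labels do not say that each library is a separate mouse, and p-values measure the spread between these libraries. In bulk tumours, fewer cells of a type and less RNA per cell cannot be told apart.

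The 250 bases before the RefSeq transcription start (GRCm38.p6) of 4 genes are shown because Fos, Fosb and Junb were lower than Vehicle in at least 1 treated group and carry the core of the cAMP response element, and Fosl2, higher in ADF+ENZ, does not carry it. They were picked for direction and motif together, so nothing about the members as a whole follows from the pairing. Jun, Jund and Ier3 also lack the core in this window, and Ier3 differed by -0.56 in ADF without passing in edgeR. All 10 members were looked up in RefSeq, and upstream sequence was used for 7. Sequence of Egr1 on its own chromosome was left out by choice, so its motifs are unknown here. None was matched for Fosl1 or Ier2. Capitals mark the core TGACG and the TATA box TATAAA, each searched on both strands; neither contains the other. The regions are chr12:85473640-85473889 (plus strand) for Fos, chr7:19310046-19310295 (minus strand) for Fosb, chr8:84978749-84978998 (minus strand) for Junb and chr5:32136222-32136471 (plus strand) for Fosl2, each written 5′ to 3′ on the gene's strand.
Fos: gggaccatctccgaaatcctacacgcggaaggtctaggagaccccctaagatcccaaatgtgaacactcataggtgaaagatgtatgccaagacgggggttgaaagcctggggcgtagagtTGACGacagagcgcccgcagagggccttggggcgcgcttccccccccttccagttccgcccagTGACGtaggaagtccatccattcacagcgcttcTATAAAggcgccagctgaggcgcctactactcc
Fosb: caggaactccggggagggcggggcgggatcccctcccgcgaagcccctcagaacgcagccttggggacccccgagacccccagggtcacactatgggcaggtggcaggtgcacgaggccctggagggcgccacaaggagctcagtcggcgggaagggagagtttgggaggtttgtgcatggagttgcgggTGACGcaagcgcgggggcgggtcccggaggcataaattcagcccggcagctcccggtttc
Junb: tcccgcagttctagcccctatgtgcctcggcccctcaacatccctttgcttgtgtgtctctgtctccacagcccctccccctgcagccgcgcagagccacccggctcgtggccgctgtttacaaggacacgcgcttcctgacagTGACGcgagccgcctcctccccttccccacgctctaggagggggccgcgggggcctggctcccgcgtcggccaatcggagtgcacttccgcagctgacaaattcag
Fosl2: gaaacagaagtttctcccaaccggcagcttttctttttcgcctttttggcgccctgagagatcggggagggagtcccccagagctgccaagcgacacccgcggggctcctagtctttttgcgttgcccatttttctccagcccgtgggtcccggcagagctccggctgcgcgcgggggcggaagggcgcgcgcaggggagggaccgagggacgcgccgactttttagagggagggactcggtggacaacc
In Fos the core began 129 and 66 bases before the start and TATAAA 33 bases before it. In Fosb the core began 60 bases and in Junb 106 bases before the start. Of the 7 members with sequence, 3 held the core, which 17.77% of 32851 RefSeq upstream regions of this length held; TATAAA was in 12.37%. The AP-1 site itself (TGACTCA or TGAGTCA, in 4.463% of regions) and the CArG box that SRF binds (1.467%) were not found in these 7 windows, which do not reach the serum response element farther upstream of Fos.

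The members spanned a wide range of levels. Per kilobase of exon, the order of mean levels over the 16 libraries was Jun (52.4 CPM per kb, range 44.6 to 60.7), Jund (35.4), Fosl2 (35.3), Ier3 (31.8), Junb (25.9), Fosl1 (13.9), Ier2 (12.8), Fos (5.25), Egr1 (4.63) and Fosb (1.78). Neighbours in this order overlapped in their ranges over libraries, except Junb and Fosl1. The genes lowest in this order varied most: the highest library exceeded the lowest 6.78-fold for Fos, 4.02-fold for Egr1 and 2.97-fold for Fosb, against 1.36-fold for Jun and 1.60-fold for Junb.

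**Figure D1:**
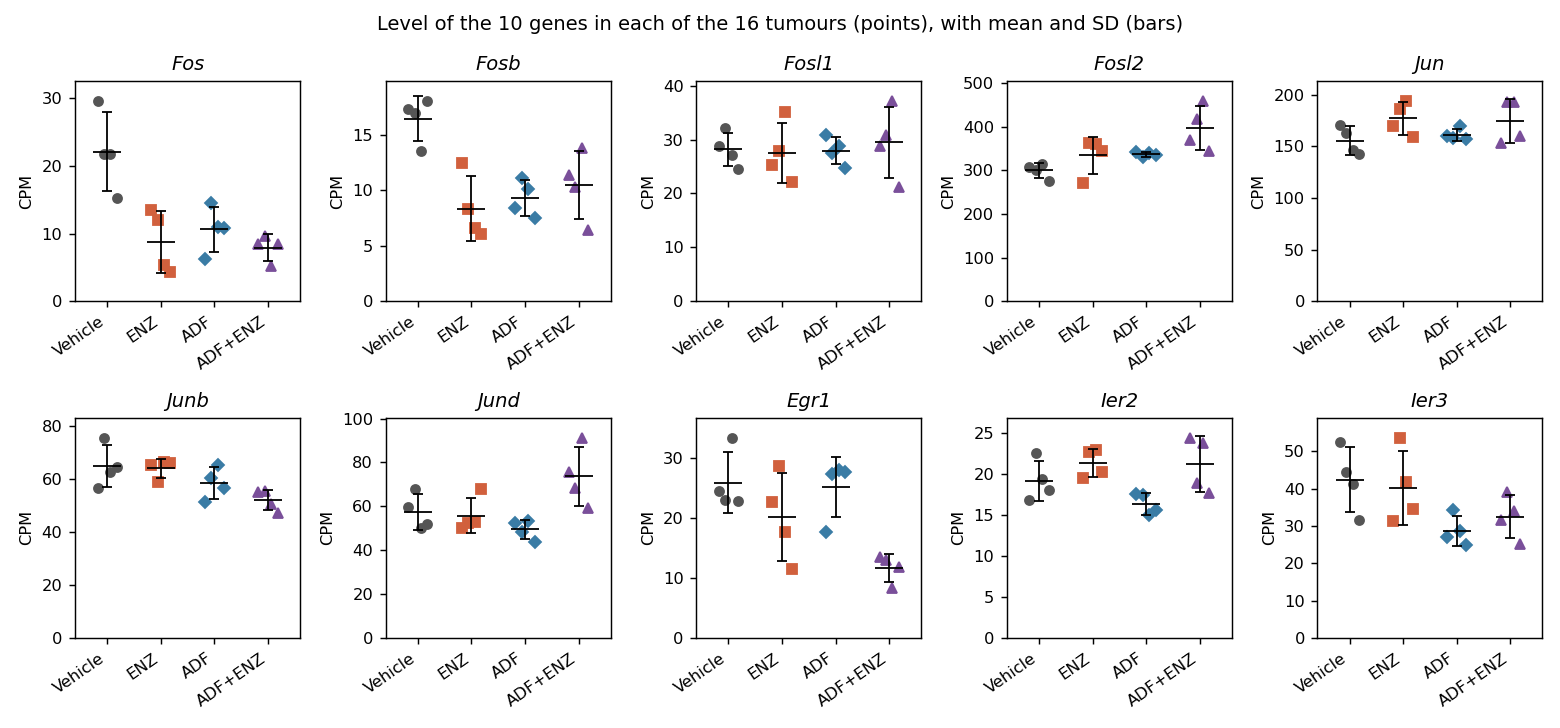
Level of each of the 10 genes (y axis, TMM-scaled CPM, from 0; a separate scale per gene) in Vehicle, ENZ, ADF and ADF+ENZ tumours (x axis); points are single tumours and bars the mean and SD of 4. Every treated tumour lies below the lowest Vehicle tumour for Fos, and the ADF+ENZ mean is the highest of the 4 for Fosl2 and Jund and the lowest for Egr1.

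Fos, the short-lived founding member of its family, was lower in tumours of every treated group. It stood at 29.5, 21.8, 21.7 and 15.3 CPM in the Vehicle tumours and at 13.4, 12.01, 5.41 and 4.36 CPM in the ENZ tumours. In ADF tumours it was 6.24, 14.5, 11.02 and 10.8 CPM, and in ADF+ENZ tumours 8.41, 9.69, 5.15 and 8.45 CPM. No treated tumour reached the lowest Vehicle tumour, while the 3 treated groups overlapped one another. Fos fell 2.56-fold with ENZ (log2 change -1.36, SE 0.347, edgeR adjusted p = 0.0358) and 2.75-fold with ADF+ENZ (-1.46, SE 0.349, adjusted p = 0.0153). The difference of ADF from Vehicle, -1.05 (SE 0.342), did not pass in edgeR (adjusted p = 0.0674), but did with DESeq2 (-1.07, adjusted p = 0.0111) and limma-voom (-1.01, adjusted p = 0.0382), with only those 2 groups fitted (-1.04, adjusted p = 0.0405) and without ENZ replicate 4 (-1.05, adjusted p = 0.0413); with the no-feature share as a covariate it was -1.80 (adjusted p = 0.2998). The ENZ call was lost with no filter on low counts (adjusted p = 0.0863), with only the 2 groups (0.099), and without Vehicle replicate 1 (-1.19), 2 (-1.36) or 3 (-1.37), ENZ replicate 3 (-1.18) or 4 (-1.12), or ADF replicate 3 (-1.36); the ADF+ENZ call was lost without ADF+ENZ replicate 3 (-1.32, adjusted p = 0.0531).

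Fosb, whose protein pairs with Jun proteins and whose transcript is induced alongside Fos, had the lowest level per kilobase. It was 17.3, 16.9, 13.5 and 18.01 CPM in Vehicle and 12.4, 8.26, 6.61 and 6.06 CPM in ENZ tumours. It was 8.39, 11.1, 10.1 and 7.53 CPM in ADF and 11.4, 10.3, 13.8 and 6.43 CPM in ADF+ENZ tumours. The ENZ and ADF tumours all lay below Vehicle, and ADF+ENZ overlapped it through 1 tumour, replicate 3. Fosb fell 1.999-fold with ENZ (-1.0, SE 0.225, edgeR adjusted p = 0.0147) and 1.77-fold with ADF (-0.82, SE 0.224, adjusted p = 0.0298), and ADF+ENZ differed from Vehicle by -0.67 (SE 0.224, adjusted p = 0.0553). The ENZ call was lost without ENZ replicate 3 (-0.91, adjusted p = 0.063) or 4 (-0.87, adjusted p = 0.0532). The ADF call was lost without Vehicle replicate 2 (-0.81) or 4 (-0.78) or ADF replicate 1 (-0.78), 3 (-0.86) or 4 (-0.74), and with the no-feature share as a covariate (-0.88, adjusted p = 0.455); the ADF+ENZ difference passed with DESeq2 (-0.67, adjusted p = 0.0284) and limma-voom (-0.87, adjusted p = 0.00918), and without ENZ replicate 1 or 4 (each -0.67) or ADF+ENZ replicate 3 (-0.83).

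Fosl2 (Fra-2) and Fosl1 (Fra-1), which lack the transactivation domain of Fos, passed no test as lower. Fosl2 was 309, 301, 314 and 275 CPM in Vehicle, 272, 362, 359 and 345 CPM in ENZ, and 343, 329.6, 339 and 334 CPM in ADF tumours. In ADF+ENZ tumours it was 369, 417, 459 and 345 CPM. Every ADF and every ADF+ENZ tumour lay above Vehicle, and 1 ENZ tumour lay below it. Fosl2 rose 1.33-fold with ADF+ENZ against Vehicle (0.41, SE 0.0993, edgeR adjusted p = 0.0126). Its differences of 0.16 in ENZ (adjusted p = 0.398) and 0.17 in ADF (adjusted p = 0.295) did not pass. Without ADF+ENZ replicate 3, the ADF+ENZ difference was 0.33 and did not pass (adjusted p = 0.0577). Fosl1 ranged from 24.6 to 32.1 CPM in Vehicle tumours, 22.1 to 35.1 with ENZ, 24.7 to 30.8 with ADF and 21.2 to 37.1 with both. Its 3 differences from Vehicle were -0.03, -0.01 and 0.06, each smaller than its standard error of about 0.153; Fosl1 shares sequence on the opposite strand with Ccdc85b, and whether counting used strand is unknown here.

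The make-up of the Fos family was read as each gene's share of the family's level. Fos held 16.3% ± 3.06 (SD, n = 4) of the family's CPM per kb in Vehicle tumours, 7.11% ± 3.93 with ENZ, 8.27% ± 2.56 with ADF and 5.71% ± 1.77 with both. Fosl2 held 54.6% ± 2.63, 64.9% ± 5.75, 63.8% ± 2.003 and 67.8% ± 1.78 in the same order. The highest Vehicle share of Fosl2 was 56.9%, and the lowest share among the 12 treated tumours was 58.2%, so these did not overlap. Shares add up to a fixed whole, so a lower share of Fos raises the others without a higher Fosl2 level. ENZ replicate 1 lay above Vehicle in this share but had the lowest Fosl2 level of all tumours, 272 CPM. Fosl1 held 23.7% to 25.4% in all 4 groups (means). These shares rest on the same counts as the levels and were not tested on their own.

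**Figure D2:**
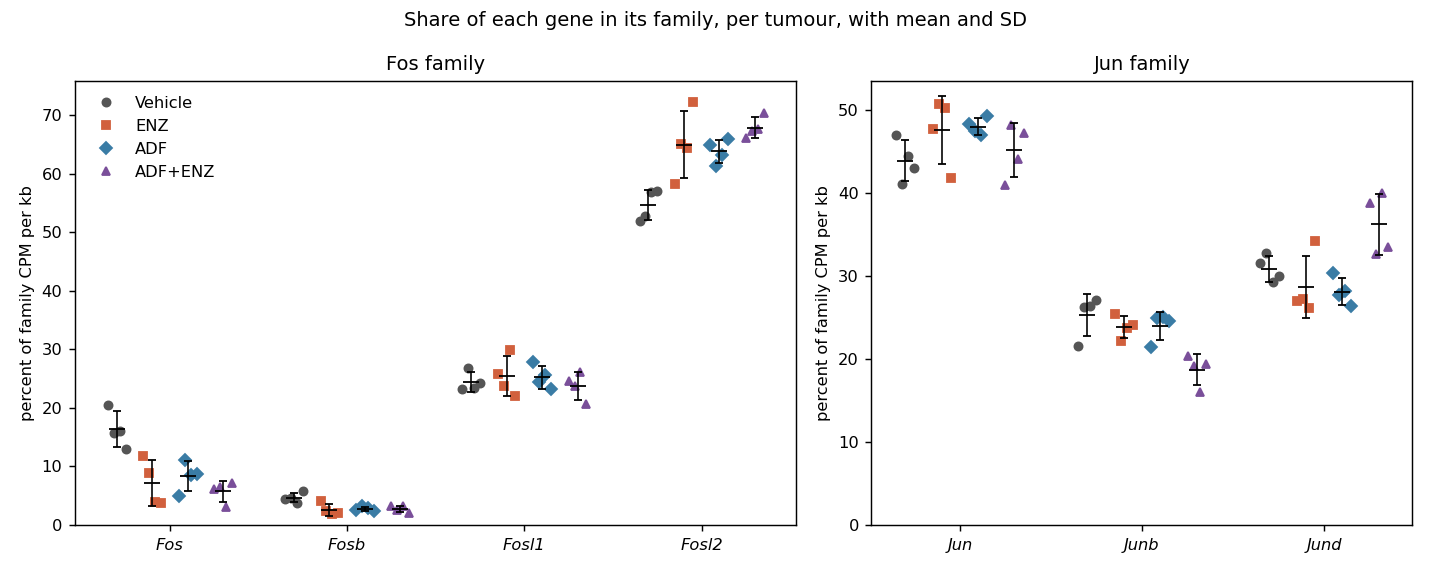
Share of each gene in the summed CPM per kb of its family (y axis, percent, from 0) for the Fos family (left) and the Jun family (right); points are single tumours by group, bars the mean and SD of 4. The Vehicle tumours are highest for Fos and lowest for Fosl2, and the ADF+ENZ tumours are lowest for Junb.

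Among the Jun proteins, Jun is the strongest activator, Junb can oppose it and limit proliferation, and Jund is the form most abundant in resting cells. Jun was 171, 163, 146 and 142 CPM in Vehicle and 169.5, 186, 194 and 159 CPM in ENZ tumours. It was 159.7, 158, 169.7 and 157 CPM in ADF and 153, 193, 192 and 159.9 CPM in ADF+ENZ tumours. The groups overlapped throughout, and the differences from Vehicle were 0.19 for ENZ (edgeR adjusted p = 0.263), 0.05 for ADF (0.763) and 0.17 for ADF+ENZ (0.246). Junos, an antisense gene over Jun, was at 8.59 to 12.3 CPM (group means) and passed no comparison.

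Junb was 56.5, 75.4, 62.4 and 64.5 CPM in Vehicle, 65.0, 58.6, 66.1 and 65.9 in ENZ, and 51.1, 60.2, 65.3 and 56.5 in ADF tumours. In ADF+ENZ tumours it was 54.8, 55.5, 50.3 and 47.2 CPM, below every Vehicle and every ENZ tumour. Junb fell 1.25-fold with ADF+ENZ against Vehicle (-0.32, SE 0.0950, edgeR adjusted p = 0.0345). Its differences of -0.02 in ENZ (adjusted p = 0.942) and -0.15 in ADF (adjusted p = 0.322) did not pass. The call was lost without Vehicle replicate 2 (-0.23), 3 (-0.33) or 4 (-0.32) or ADF+ENZ replicate 1 (-0.34), 3 (-0.31) or 4 (-0.27). It was also lost with limma-voom (-0.28, adjusted p = 0.0576), with only the 2 groups fitted (adjusted p = 0.0602) and with the no-feature covariate (adjusted p = 0.0514). Junb held 18.7% ± 1.89 of Jun-family CPM per kb in ADF+ENZ, against 25.3% ± 2.53 in Vehicle; the highest ADF+ENZ share, 20.3%, lay below the lowest of the other 12 tumours, 21.4%.

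Jund was 59.9, 68.0, 50.1 and 51.8 CPM in Vehicle, 50.2, 52.3, 52.8 and 67.9 in ENZ, and 52.4, 48.4, 53.2 and 43.9 in ADF tumours. In ADF+ENZ tumours it was 75.6, 68.4, 91.3 and 59.2 CPM, above every ADF tumour and overlapping Vehicle and ENZ. Jund rose 1.48-fold in ADF+ENZ against ADF (0.57, SE 0.130, edgeR adjusted p = 0.00944). Against Vehicle the ADF+ENZ difference was 0.35 (SE 0.129, adjusted p = 0.0790), which passed without Vehicle replicate 2 (0.44, adjusted p = 0.0368) or ADF+ENZ replicate 4 (0.45, adjusted p = 0.0307). With the no-feature share as a covariate, the difference from ADF was 0.10 and did not pass. Prdx2, whose gene span overlaps that of Junb on the opposite strand, rose in ADF+ENZ against ADF by 0.28 (edgeR adjusted p = 0.0381), while Junb differed by -0.17 (adjusted p = 0.233).

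Egr1, a zinc finger factor induced by ERK through SRF and TCF, was low in ADF+ENZ. It was 24.5, 23.0, 33.4 and 22.9 CPM in Vehicle and 22.7, 28.7, 17.8 and 11.5 CPM in ENZ tumours. It was 17.7, 27.4, 28.03 and 27.7 CPM in ADF and 13.6, 13.1, 8.33 and 11.9 CPM in ADF+ENZ tumours. Every ADF+ENZ tumour lay below every Vehicle and every ADF tumour, and ENZ spanned both. Egr1 fell 2.19-fold in ADF+ENZ against Vehicle (-1.13, SE 0.245, edgeR adjusted p = 0.00799), which passed in all 16 fits that each left out 1 library and in all 8 other settings. It fell 2.14-fold against ADF (-1.10, SE 0.246, adjusted p = 0.0104), a call lost only with the no-feature covariate (-0.55) among the 24 alternatives run. Its differences from Vehicle in ENZ (-0.37, adjusted p = 0.416) and ADF (-0.04, adjusted p = 0.938) did not pass.

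Ier2 encodes a short nuclear protein of the immediate early class, and Ier3 (IEX-1) a regulator of apoptosis and ERK signalling. Ier2 was 16.9, 22.5, 19.4 and 18.01 CPM in Vehicle and 19.5, 22.7, 22.9 and 20.2 CPM in ENZ tumours. It was 17.5, 17.4, 14.96 and 15.6 CPM in ADF and 24.4, 18.8, 23.8 and 17.7 CPM in ADF+ENZ tumours. It rose in ADF+ENZ against ADF by 0.36 (SE 0.122, edgeR adjusted p = 0.0482), with groups that did not overlap. This call was the least stable of the members' calls: it passed in 6 of the 16 fits that left out 1 library (0.29 to 0.45), being lost without Vehicle replicate 3 or 4, ENZ replicate 2, 3 or 4, ADF replicate 2, 3 or 4, or ADF+ENZ replicate 1 or 3, and among the other settings it was lost with no filter (adjusted p = 0.0622), a stricter filter (0.0502) or only the 2 groups fitted (0.0738), and was -0.09 with the no-feature covariate. Ier3 was 52.5, 44.4, 41.3 and 31.5 CPM in Vehicle and 27.2, 34.2, 28.7 and 24.8 in ADF tumours. It was 31.2, 53.6, 41.7 and 34.6 CPM in ENZ and 31.5, 39.1, 34.1 and 25.2 in ADF+ENZ tumours, and all groups overlapped Vehicle. The ADF difference of -0.56 (SE 0.180) did not pass in edgeR (adjusted p = 0.0592); it passed with DESeq2 (-0.57, adjusted p = 0.0237), with only the 2 groups fitted (-0.56, adjusted p = 0.0446), and without Vehicle replicate 4 (-0.68) or ENZ replicate 1 or 2 (each -0.56).

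**Figure D3:**
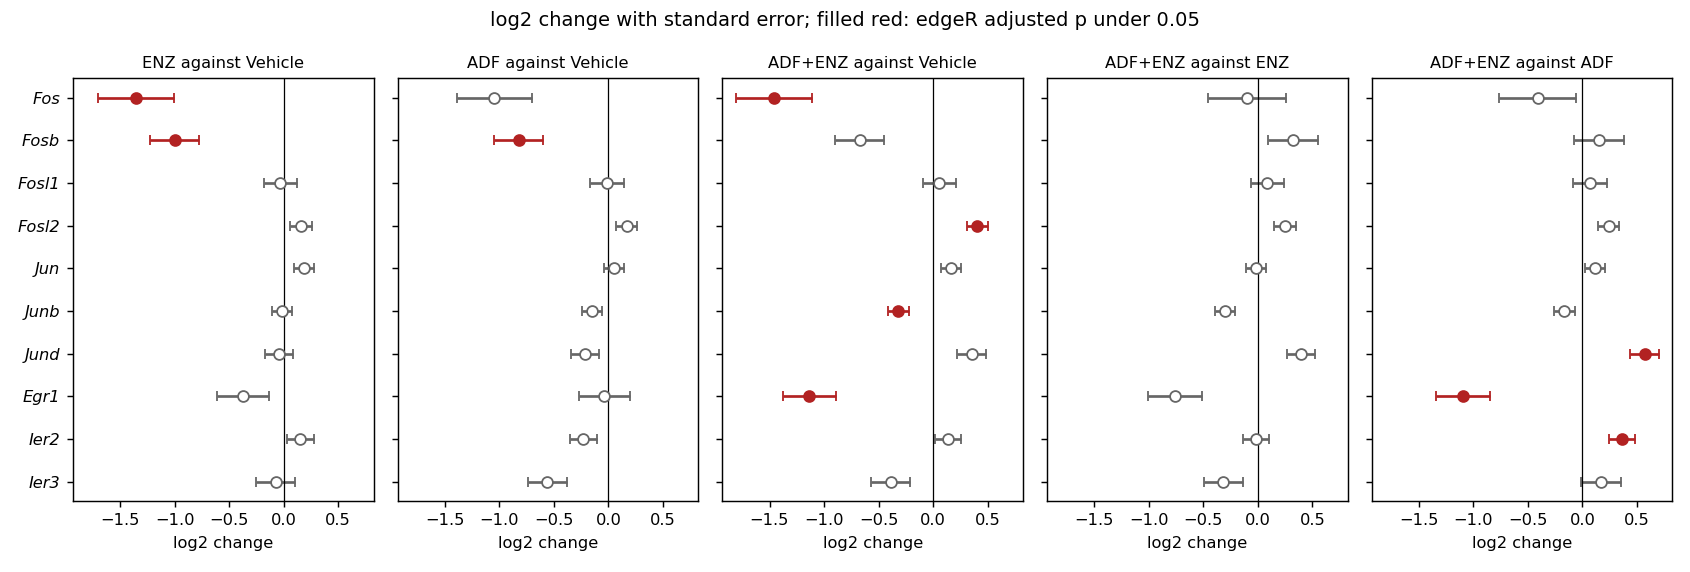
log2 change of each of the 10 genes (x axis, points) with its standard error (bars) in the 5 pairwise comparisons (panels); filled red points passed an edgeR adjusted p of 0.05. Fos and Fosb lie to the left in the 3 comparisons with Vehicle. In the comparisons of ADF+ENZ, Fosl2 and Jund lie to the right and Egr1 to the left, where Egr1 passed against Vehicle and ADF but not ENZ.

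Counted by comparison, 2 of the 10 members passed in ENZ against Vehicle, both lower, where 5.43% of all genes passed; the same 2 genes had ranges that did not overlap, as did 12% of all genes. In ADF against Vehicle 1 member passed, lower, beside 9.01% of all genes, and 3 members (Fos and Fosb lower, Fosl2 higher) did not overlap, beside 16.5%. In ADF+ENZ against Vehicle 4 members passed, 1 higher and 3 lower, beside 12.5% of all genes, and these 4 did not overlap, beside 17.3%. These 3 comparisons share the 4 Vehicle libraries. Without ADF+ENZ replicate 3, 2 members passed in the last of them; the share over all genes fell from 12.5% to 6.21% in that fit. That tumour had the highest Fosl1, Fosl2 and Jund levels and the lowest Egr1 level of the 16. Its library also had the fewest gene counts (10072489) and the largest share of unaligned reads, 16.7%, against at most 12.2% in any other library. The part of library quality in its levels was not tested. The members' median log2 change was -0.04, -0.18 and -0.13 in the 3 comparisons, against 0.01, 0.01 and 0.00 over all genes.

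Fasting added to enzalutamide was read in ADF+ENZ against ENZ, where 0 of 10 members passed in edgeR, beside 1.09% of all genes; 4 had an unadjusted p under 0.05, DESeq2 passed 1 (Egr1) and limma-voom 0. The 4 were Egr1 (-0.76, edgeR adjusted p = 0.145), Jund (0.39, 0.143), Junb (-0.30, 0.130) and Fosl2 (0.25, 0.234). Only Junb had ranges that did not overlap, as did 8.67% of all genes. Fos differed by -0.10 (SE 0.358) and Fosb by 0.33 (SE 0.230). Enzalutamide added to fasting was read in ADF+ENZ against ADF, where 3 members passed (Jund and Ier2 higher, Egr1 lower), beside 16.3% of all genes; 4 did not overlap, those 3 and Fosl2 (0.24, adjusted p = 0.100), beside 20.5%. With the no-feature covariate, 0 of the members and 0 of all genes passed in this comparison.

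The interaction asks whether the effect of enzalutamide differed between fasted and freely fed mice, as (ADF+ENZ minus ADF) minus (ENZ minus Vehicle). In edgeR 0 of 10 members passed, beside 3.1% of all genes, and 3 had an unadjusted p under 0.05: Fosb, Jund and Egr1. Fosb had an interaction of 1.15 (SE 0.321, adjusted p = 0.0559): enzalutamide differed from its control by -1.0 in fed and 0.15 in fasted mice. Jund had 0.61 (SE 0.183, adjusted p = 0.0714), from -0.04 and 0.57, and Egr1 -0.72 (SE 0.340, adjusted p = 0.235), from -0.37 and -1.10. DESeq2 passed Fosb (1.17, adjusted p = 0.0107) and Jund (0.63, adjusted p = 0.0312), limma-voom passed Fosb (1.08, adjusted p = 0.0439), and DESeq2 size factors in edgeR passed Fosb (1.17, adjusted p = 0.0498). Fosb also passed without ENZ replicate 1 (1.39) or ADF+ENZ replicate 4 (1.34), and Jund without ENZ replicate 4 (0.72) or ADF+ENZ replicate 4 (0.71). Removing trends on gene GC content and length also gave a pass for Jund (0.78). With the no-feature share as a covariate, the interaction was 0.14 for Jund, -0.16 for Egr1 and 1.22 for Fosb, and none passed.

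The pathway around the members was read from 5 lists with 93 genes, of which 89 were tested. Their counts are to be read against the share of all genes that passed: 5.43% with ENZ, 9.01% with ADF and 12.5% with both, each against Vehicle, and 16.3% in ADF+ENZ against ADF. Upstream, among 17 SRF, TCF and MAP kinase genes, Mapk3 (ERK1) fell in ADF (-0.34, edgeR adjusted p = 0.0128) and ADF+ENZ (-0.36, adjusted p = 0.0055). Map2k1 (MEK1), the kinase that activates ERK, fell in ADF (-0.54, adjusted p = 0.0047) and ADF+ENZ (-0.34, adjusted p = 0.036). Braf fell in ENZ (-0.31, adjusted p = 0.0278), and Mrtfa, an actin-regulated partner of SRF, rose in ADF+ENZ (0.33, adjusted p = 0.0343). The calls of Mapk3 (-0.23) and Map2k1 (-0.32) in ADF and of Mrtfa (0.30) in ADF+ENZ were lost with the no-feature covariate. In all, 0 rose and 2 fell in ENZ, 0 rose and 3 fell in ADF, and 1 rose and 3 fell in ADF+ENZ, or 11.8%, 17.6% and 23.5% of the list; none of the 17 passed in edgeR in ADF+ENZ against ADF (2 at an unadjusted p under 0.05; DESeq2 0, limma-voom 0) or against ENZ (4 unadjusted; DESeq2 2, limma-voom 1). The list's median log2 change was -0.05 with ENZ, -0.07 with ADF and 0.04 with both, against Vehicle.

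A list named ERK feedback inhibitors held 13 genes of the Dusp, Spry, Spred and Etv families. The name is loose: Etv4 and Etv5 are transcription factors and not inhibitors, and Dusp10 is not specific to ERK. Counts over the list are therefore not a measure of ERK feedback alone. None of the 13 passed in ENZ against Vehicle in edgeR, DESeq2 or limma-voom, and 0 had an unadjusted p under 0.05. Dusp6, the cytoplasmic ERK phosphatase, fell in ADF (-0.37, edgeR adjusted p = 0.0145) and ADF+ENZ (-0.44, adjusted p = 0.0034), from 156 CPM ± 10.6 in Vehicle to 121 ± 10.1 and 115 ± 12.5. Dusp1, a nuclear MAP kinase phosphatase that is also a glucocorticoid target, rose in ADF+ENZ instead, to 126 CPM ± 16.8 from 79.6 ± 10.4 with Vehicle, 85.5 ± 10.9 with ENZ and 80.3 ± 14.3 with ADF. Its difference was 0.66 from Vehicle (adjusted p = 0.004), 0.55 from ENZ (adjusted p = 0.0468) and 0.65 from ADF (adjusted p = 0.0055); the difference from ENZ passed in 4 of 16 fits that left out 1 library. Dusp6 in ADF (-0.47, adjusted p = 0.264) and Dusp1 against ENZ (0.49, adjusted p = 0.128) lost their calls with the no-feature covariate. Dusp4 (0.51), Dusp10 (0.57) and Spry1 (0.93), an inhibitor of receptor tyrosine kinase signalling, also rose in ADF+ENZ against ADF, so 4 of 13 (30.8%) rose there and 0 fell, beside 16.3% of all genes called in either direction, with a list median of 0.27 against -0.02 for all genes. With the no-feature covariate none of the 4 passed, at 0.01 for Dusp4, 0.01 for Dusp10, 0.12 for Spry1 and 0.32 for Dusp1, and the list median was -0.01. Without ADF+ENZ replicate 3, none of Dusp4 (0.47), Dusp10 (0.44) and Spry1 (0.74) passed.

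Of 31 other immediate early genes, 30 were tested and Egr4 had 0 counts in all 16 libraries. In ENZ 1 rose and 4 fell, in ADF 0 rose and 2 fell, and in ADF+ENZ 1 rose and 3 fell, or 16.7%, 6.67% and 13.3% of the list, with list medians of -0.12, -0.09 and -0.01. Ccn2 (CTGF), a matrix protein and target of SRF and YAP, fell in ENZ by 1.35 (SE 0.323, edgeR adjusted p = 0.0293), from 265 CPM ± 67.3 to 104 ± 49.3. Klf4 fell in ENZ by 0.66 (SE 0.171, adjusted p = 0.0352), from 182 CPM ± 12.6 to 116 ± 21.4. Mcl1, an anti-apoptotic BCL2 relative, fell in all 3 comparisons with Vehicle, by 0.29, 0.31 and 0.25 (adjusted p = 0.0171, 0.0114 and 0.0211). Ier5l rose in ENZ (0.43, adjusted p = 0.0471) and ADF+ENZ (0.42, adjusted p = 0.03), and Nfkbia, the NF-kB inhibitor, fell in ADF+ENZ (-0.40, adjusted p = 0.0137). The ENZ call of Ier5l passed in 5 of 16 fits that left out 1 library and in 5 of 8 other settings. The ENZ calls of Klf4, Ccn2 and Mcl1 passed in 9, 10 and 14 of those 16 fits. Egr2, a relative of Egr1, fell in ADF+ENZ against Vehicle (-0.88, adjusted p = 0.0236) and against ADF (-0.83, adjusted p = 0.0289), from 4.09 CPM ± 0.772 and 3.95 ± 1.03 to 2.22 ± 0.284. In ADF+ENZ against ADF 4 of the 30 rose, among them the antiproliferative genes Tob1 (0.58) and Btg1 (0.28) and the stress gene Ier5 (0.26), and 1 fell, 16.7% of the list in all. With the no-feature covariate, Mcl1 in ADF (-0.24), Egr2 against Vehicle (-0.78) and against ADF (-0.26), Ier5l in ADF+ENZ (0.34), Tob1 (0.18), Btg1 (0.26) and Ier5 (0.14) lost their calls.

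Of 12 bZIP factors that pair with or resemble AP-1 proteins, none passed in ENZ in edgeR, DESeq2 or limma-voom, and 4 had an unadjusted p under 0.05. Their median log2 change was -0.06 with ENZ, 0.00 with ADF and -0.02 with both, against Vehicle. Maff, a small Maf protein with no activation domain, fell in ADF (-0.55, edgeR adjusted p = 0.0047) and rose in ADF+ENZ against ADF (0.64, adjusted p = 0.0025). It was 46.8 CPM ± 3.76 in Vehicle tumours, 45.3 ± 5.03 with ENZ, 31.9 ± 3.88 with ADF and 49.8 ± 6.06 with both, and its interaction passed (0.69, adjusted p = 0.0242). These 3 Maff values were -0.17, 0.15 and 0.19 with the no-feature covariate, and none passed. Jdp2, a repressor that dimerizes with Jun, rose in ADF+ENZ against Vehicle (0.47, adjusted p = 0.0465), a call that passed in 5 of 16 fits that left out 1 library and was lost with the covariate (0.33).

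Of 20 genes known as AP-1 targets, 17 were tested, and Il6, Il11 and Ereg were below the filter. The count that rose or fell was 0 and 1 in ENZ, 0 and 2 in ADF and 0 and 1 in ADF+ENZ, all against Vehicle, or 5.88%, 11.8% and 5.88% of the list. Vegfa, the angiogenic factor, fell in ADF by 0.89 (SE 0.114, edgeR adjusted p = 0.0003), from 308 CPM ± 55.3 to 166 ± 11.9, was 260 ± 30.6 in ADF+ENZ, and had an interaction of 0.83 (adjusted p = 0.0128). Plaur, the urokinase receptor, fell in ADF (-0.44, adjusted p = 0.0372). Cd44 fell in ENZ (-0.43, adjusted p = 0.026), and Hbegf, an EGF receptor ligand, fell in ADF+ENZ (-0.81, adjusted p = 0.0073). In ADF+ENZ against ADF, 4 of the 17 rose, among them Vegfa (0.64), Spp1 (0.49) and Sphk1 (0.59), and none fell. The 4 were 23.5% of the list. With the no-feature covariate, Vegfa in ADF (-0.59), its interaction (0.44), Plaur (-0.33) and the calls against ADF (Vegfa 0.27, Spp1 0.27, Sphk1 0.31) did not pass. The list's median log2 change was -0.36 in ADF against Vehicle and, with the covariate, -0.19. It was 0.35 in ADF+ENZ against ADF and, with the covariate, 0.14. These comparisons share the 4 ADF libraries with opposite sign, so their opposite medians are not separate results.

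Over the 5 lists, 1 gene rose and 7 fell in ENZ, 0 rose and 9 fell in ADF, and 4 rose and 8 fell in ADF+ENZ, all against Vehicle; 13 rose and 1 fell in ADF+ENZ against ADF, and 1 rose in ADF+ENZ against ENZ. These were 8.99%, 10.1%, 13.5%, 15.7% and 1.12% of the 89 genes, beside 5.43%, 9.01%, 12.5%, 16.3% and 1.09% of all genes, so apart from ENZ against Vehicle the shares were near the background. With the no-feature share as a covariate, 0 of the listed genes passed in ADF against Vehicle, in either comparison of ADF+ENZ with a single treatment, or in the interaction. Without Vehicle replicate 3, 1 of the listed genes rather than 8 passed in ENZ against Vehicle, while calls over all genes fell from 1028 to 461. Without ADF+ENZ replicate 3, 6 rather than 12 passed in ADF+ENZ against Vehicle and 5 rather than 14 in ADF+ENZ against ADF, while calls over all genes fell from 2369 to 1202 and from 3081 to 1274. Of the 47 calls of listed genes named by the rule, 18 passed in every fit that left out 1 library, and of the 10 calls of members 3 did: Egr1 in ADF+ENZ against Vehicle and against ADF, and Jund in ADF+ENZ against ADF.

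**Figure D4:**
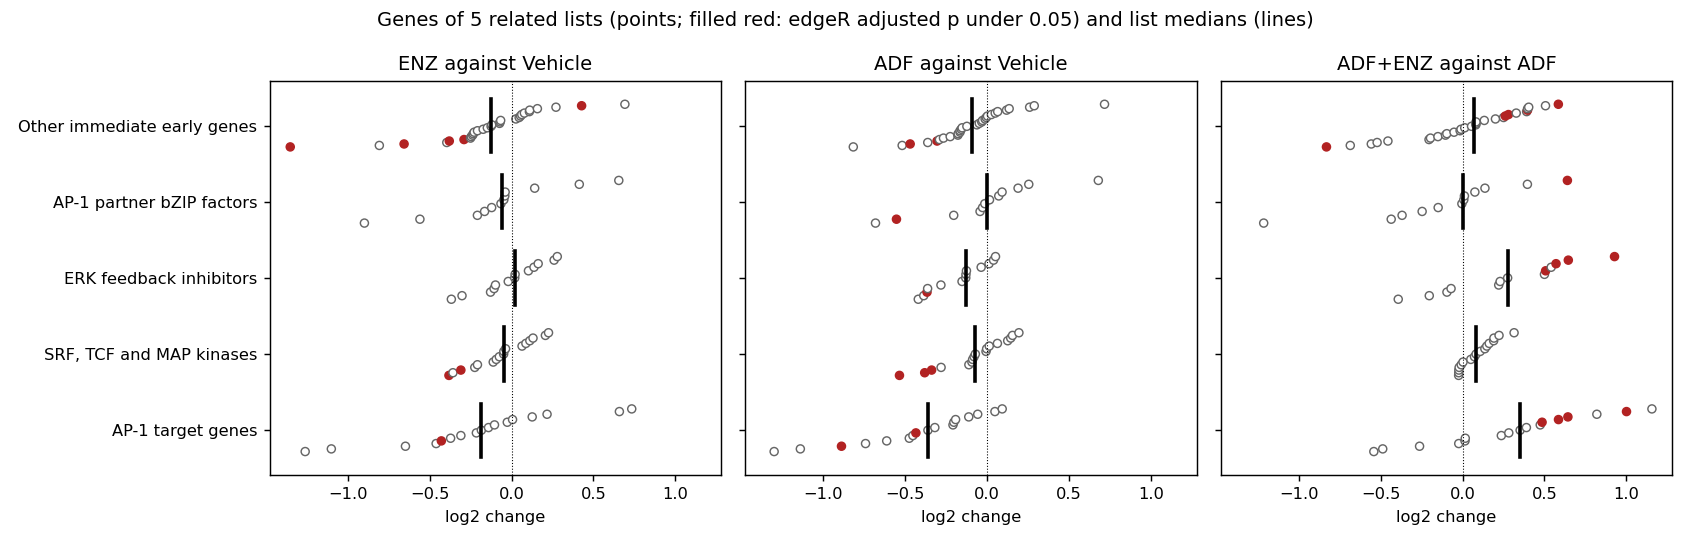
log2 change (x axis) of each gene of the 5 pathway lists (rows) in ENZ against Vehicle, ADF against Vehicle and ADF+ENZ against ADF (panels); points are genes, filled red where the edgeR adjusted p was under 0.05, and vertical lines list medians. The AP-1 targets have a median of -0.36 in ADF against Vehicle and 0.35 in ADF+ENZ against ADF; these panels share the ADF libraries with opposite sign.

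Marker lists of other cell types moved in part with the groups. The summed level of 8 fibroblast markers was 10972 to 12768 CPM in Vehicle and 9386 to 10427 CPM in ENZ tumours, without overlap; it was 8869 to 12591 in ADF and 11501 to 13411 in ADF+ENZ. This sum was carried by Col1a1, Col1a2, Col3a1 and Dcn. In ENZ the means of Dpt (28.4 against 17.9 CPM) and Lum (13.7 against 7.47) were higher than in Vehicle, and the others lower. In edgeR 0 of the 8 passed in ENZ against Vehicle in either direction. The adipocyte list summed to 149 to 302 CPM in Vehicle tumours, 101 to 134 with ENZ, 95.2 to 263 with ADF and 105 to 170 with both. It was carried by Plin4, while Adipoq, Plin1, Lep, Cidec and Pck1 were under 1 CPM in every group mean and Cfd at most 1.02 CPM. Ranges in Vehicle overlapped those of every treated group for luminal (631 to 845 CPM), endothelial (294 to 502), macrophage (1246 to 1736), neutrophil (18.5 to 25.1), T cell (5.83 to 24.6), skeletal muscle (2.06 to 24.7) and keratinocyte markers (11.1 to 18.3); Krt1 was at 0 in all libraries and Krt5 and Krt14 under 1 CPM. The part of the fibroblast and adipocyte lists in the lower Fos and Fosb levels of ENZ tumours was not tested.

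Genes whose pattern over the 16 libraries was most like 4 of the members were read as a description among 16042 genes with at least 1 CPM on average. The points share libraries, depth and treatment group, so the correlation of deviations from group means is given as a second value. For Fos the closest were Pfkp (Pearson r = 0.874; 0.751 within groups), Clec2d (0.870; 0.694), Fbln2 (0.870; 0.673), C1ra (0.866; 0.699) and Fndc3a (0.865; 0.680). Pfkp, the platelet form of phosphofructokinase, was 46.6 CPM ± 14.0 in Vehicle tumours, 24.8 ± 6.62 with ENZ, 22.4 ± 4.93 with ADF and 20.3 ± 4.79 with both. For Egr1 they were Pid1 (0.902; 0.756), AC132455.3 (0.892; 0.696), Egr2 (0.892; 0.752), Wdr11 (0.892; 0.809) and Gpc4 (0.888; 0.758). For Jun they were Mdc1 (0.838; 0.778), Ogfod2 (0.825; 0.765), Gm7027 (0.802; 0.782), Ttf2 (0.794; 0.712) and Gm15790 (0.791; 0.778). For Fosl1, whose level differed least between groups, they were Sart1 (0.745; 0.818), Cfap126 (0.721; 0.723), Mark2 (0.714; 0.730), Gm6278 (0.697; 0.733) and Rin1 (0.696; 0.794).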

How the data were processed

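RNA from 16 tumours in 4 groups of 4 was analysed from the deposited table of raw counts per gene and library; the values were checked to be whole numbers. Per the submitters' processing notes, Trim Galore, HISAT2, featureCounts and DESeq2 were used, and the builds mm39 and GRCh38 are named, with no role for each; the sources used here give no versions, annotation or strand setting. The deposited table also holds 5 entries with the names htseq-count writes, kept out of library sizes and tests. Symbols, lengths and GC content came from a mouse annotation of another build and matched 52081 IDs; unmatched IDs took 3.51% of all counts. Upstream sequences came from RefSeq on GRCm38.p6.

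The test was edgeR's robust quasi-likelihood (edgeR 4.0.16, R 4.3.3) with TMM in a single model of all 16 libraries, after filterByExpr (min.count 10, min.total.count 15). The 5 pairwise contrasts and the interaction were each adjusted over 18946 genes. Standard errors are the log2 change over the square root of F. The procedure was tested on simulated data. Alternatives were DESeq2 1.42.0, its size factors used in edgeR, limma-voom with quality weights (limma 3.58.1), no filter, at least 1 CPM in 4 libraries, only the 2 groups compared, a covariate for the share of no-feature reads, GC and length trends removed, and each library left out. The members and lists were chosen with earlier results of these data known. Named were all members, up to 4 genes per list and comparison with the smallest p among those past the threshold, and the 5 genes most correlated with Fos, Jun, Egr1 and Fosl1 on log2 CPM with a prior count of 2. Some genes that this rule names are not reported here, and counts over lists include them. Replicate pairs of a group differed by a chi-square per degree of freedom of 5.79 to 38.6 over 24 pairs, so each pair differed by more than counting noise. Whether any pair came from the same tumour or mouse cannot be read from this.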

Additional observations from a re-analysis of the deposited data

Results flagged for a closer look

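In 4 of the 40 member and group combinations, 1 tumour stood far from the other 3 of its group; chance flags about 1 in 20 groups. Egr1 was 33.4 CPM in Vehicle replicate 3, with the others at 22.9 to 24.5, and 17.7 CPM in ADF replicate 1, with the others at 27.4 to 28.03. Junb was 58.6 CPM in ENZ replicate 2, below the others at 65.0 to 66.1. Jund was 67.9 CPM in ENZ replicate 4, above the others at 50.2 to 52.8.

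For Klf4, Vegfa, Tob1 and Maff the interaction, which compares the difference made by enzalutamide between fasted and freely fed mice, passed in edgeR. Over the 5 lists, 5 of 89 genes (5.62%) passed the interaction, beside 3.1% of all genes. The interaction was 1.16 for Klf4 (adjusted p = 0.023), with mean levels of 182 CPM in Vehicle tumours, 116 with ENZ, 127 with ADF and 181 with both. It was 0.83 for Vegfa, 0.71 for Tob1 and 0.69 for Maff. With the no-feature share as a covariate, none of the 4 passed, at 0.62 for Klf4, 0.44 for Vegfa, 0.30 for Tob1 and 0.19 for Maff. In the 16 fits that each left out 1 library, Vegfa passed in 16, Klf4 in 14, Maff in 13 and Tob1 in 5.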

How the results depend on the processing

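Counts of genes past the threshold moved with the setting as follows. Of the 10 members, 2 passed in ENZ against Vehicle, but 1 with no filter and 1 with only those 2 groups fitted. In ADF against Vehicle 1 passed, but 3 with DESeq2, 2 with limma-voom, 3 with only those groups and 0 with the no-feature covariate. In ADF+ENZ against ENZ 0 passed, but 1 with DESeq2; in ADF+ENZ against ADF 3 passed, but 0 with the covariate. In the interaction 0 passed, but 1 with DESeq2 size factors, 2 with DESeq2, 1 with limma-voom and 1 with GC and length trends removed. Leaving out each library in turn gave 0 to 2 in ENZ against Vehicle, 0 to 2 in ADF against Vehicle, 2 to 5 in ADF+ENZ against Vehicle, 0 to 0 in ADF+ENZ against ENZ, 2 to 3 in ADF+ENZ against ADF and 0 to 2 in the interaction. Of the listed genes, 8 passed in ENZ against Vehicle, but 5 with no filter and 5 with GC and length trends removed, and 1 to 10 with a library left out. In ADF against Vehicle 9 passed, but 14 with DESeq2, 15 with limma-voom and 0 with the covariate (6 to 12 with a library left out). With ADF+ENZ compared with Vehicle 12 passed (6 to 15 with a library left out). Compared with ENZ alone 1 passed, but 2 with DESeq2 size factors, 7 with DESeq2, 3 with limma-voom, 2 with no filter and 0 with the covariate (0 to 3 with a library left out). Compared with ADF alone 14 passed, but 22 with limma-voom and 0 with the covariate (5 to 20 with a library left out). In the interaction 5 passed, but 13 with DESeq2, 12 with limma-voom and 0 with the covariate (1 to 10 with a library left out). Over all genes the covariate left 6, 0 and 0 calls in ADF against Vehicle, ADF+ENZ against ADF and the interaction. The ADF libraries stand apart in this share, so effects of ADF and of the share cannot be told apart in that fit. The cause of the higher share was not tested. Among changes of sign, only Ier2 in ADF+ENZ against ADF was a call; the difference of Fos there also turned, from -0.41. With limma-voom, ENZ against Vehicle gave 0.032 for Fosl1, 0.011 for Junb and 0.010 for Ier3; ADF against Vehicle 0.0061 for Fosl1 and 0.028 for Egr1; ADF+ENZ against Vehicle -0.041 for Fosl1. It gave 0.16 for Fos and -0.073 for Fosl1 against ENZ, -0.054 for Fosb and -0.047 for Fosl1 against ADF, and -0.079 for Fosl1 and -0.0059 for Fosl2 in the interaction. With the covariate, ADF against Vehicle gave 0.39 for Fosl1, 0.15 for Jund and 0.13 for Ier2, and ADF+ENZ against Vehicle -0.052 for Fosl1. ADF+ENZ against ENZ gave 0.10 for Fos and -0.019 for Fosl1; against ADF it gave 0.50 for Fos, -0.44 for Fosl1, -0.015 for Fosl2, -0.089 for Ier2 and -0.047 for Ier3. The interaction was -0.41 for Fosl1, -0.17 for Fosl2 and -0.25 for Ier2. With GC and length trends removed, Ier2 was 0.0060 in ADF+ENZ against ENZ. With a library left out, differences that crossed 0 ran in ENZ against Vehicle from -0.17 to 0.066 for Fosl1, -0.088 to 0.064 for Junb, -0.15 to 0.051 for Jund and -0.24 to 0.035 for Ier3. In ADF against Vehicle they ran from -0.073 to 0.056 for Fosl1 and -0.096 to 0.11 for Egr1, and in ADF+ENZ against Vehicle from -0.071 to 0.19 for Fosl1. For ADF+ENZ against ENZ they ran from -0.34 to 0.17 for Fos, -0.049 to 0.23 for Fosl1, -0.080 to 0.038 for Jun and -0.096 to 0.064 for Ier2. For ADF+ENZ against ADF they ran from -0.0054 to 0.34 for Fosb and -0.057 to 0.21 for Fosl1, and in the interaction from -0.035 to 0.24 for Fosl1 and -0.0053 to 0.15 for Fosl2. No paired analysis was possible because the labels give no replicate numbers shared between groups.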
